A study of Mus musculus with 9 samples.

Results

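The genes described here encode enzymes and regulators of glutathione, thioredoxin and other antioxidant defences, measured in the left ventricle of mice. They were chosen by gene symbol from a list of 40, and the symbols were matched to the probe sets of the array, each probe set being the group of probes that reports 1 transcript. Of the 40, 39 were found among 21911 genes tested. The one not counted was Txn2, mitochondrial thioredoxin, because the 2 deposited tables named its only candidate probe set differently, as Txn2 and as Myh9. Gpx4 and Prdx2 had 2 probe sets each, of which the brighter on average was used.

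Oxygen metabolism in heart muscle produces superoxide and hydrogen peroxide. Superoxide dismutases turn superoxide into hydrogen peroxide, which catalase, the glutathione peroxidases and the peroxiredoxins then remove. The peroxidases draw their electrons from glutathione or thioredoxin, which are in turn reduced with NADPH, and the transcription factor Nfe2l2 (NRF2) raises the expression of many of these enzymes when electrophiles or oxidants act on its repressor. Glutathione transferases join glutathione to reactive lipids and foreign compounds.

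The mice were males, in 3 groups of 3 samples with 1 array each. The first group was wild type and the second was labelled Lrat-/-, both fed for 50 days a diet with 250000 U/kg of retinol palmitate. The third was labelled Lrat-/- and was fed for 50 days the same diet without that supplement. Lrat encodes the enzyme that esterifies retinol for storage. The comparisons were arrays labelled Lrat-/- against wild type on the sufficient diet, called genotype below, and deficient against sufficient diet within the arrays labelled Lrat-/-, called diet below. The third, Lrat-/- on the deficient diet against wild type on the sufficient one, mixes both and shares its arrays with the other 2 comparisons. No wild type on the deficient diet was among the samples. The labels give neither ages nor strain, and they do not say that each sample was a separate animal, so the p-values measure the spread between these samples.

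The targeted gene, Lrat, was not above the 95th percentile of the negative controls (7.53) on any array, yet its signal was higher on the arrays labelled Lrat-/-. In wild type it read 5.81, 5.78 and 5.73 (log2). In the groups labelled Lrat-/- it read 7.29, 7.34 and 7.38 with the sufficient diet, and 6.84, 6.78 and 6.96 with the deficient one. Its genotype difference was 1.57 ± 0.07 (SE, n = 3 against 3, limma p adjusted by Benjamini-Hochberg over all genes tested = 1.47e-05), whose size at this low signal is no measure of a fold. The sources used here do not give the place of its probes relative to the targeted stretch, so genotypes are named below as the arrays are labelled. Ventricular cardiomyocyte markers were at a mean log2 signal of 13.42 to 13.57 on every array, all 9 of them above the negative controls. Of 4 atrial markers, Nppa, Myl4 and Myl7 were above that percentile on average and Sln was not.

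The values are log2 RMA signals, which are relative brightnesses. Since probes differ in how strongly they bind, the signals of different genes are not set against each other. The 95th percentile of 5222 negative control probe sets was 7.53, and the mean of 38 of the 39 antioxidant genes lay above it, against 38.6% of all genes tested. The exception was Gpx7, at 6.96, and Txnrd2, at 7.58, was just above. The SD between arrays of a group, pooled over the 3 groups, had a median of 0.16 over the antioxidant genes and 0.13 over all genes above the control percentile. It was lowest for Txn1 at 0.045 and highest for Gsta3 at 0.53. The plot of the signals on each array shows the groups interleaved for most genes.

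**Figure D1:**
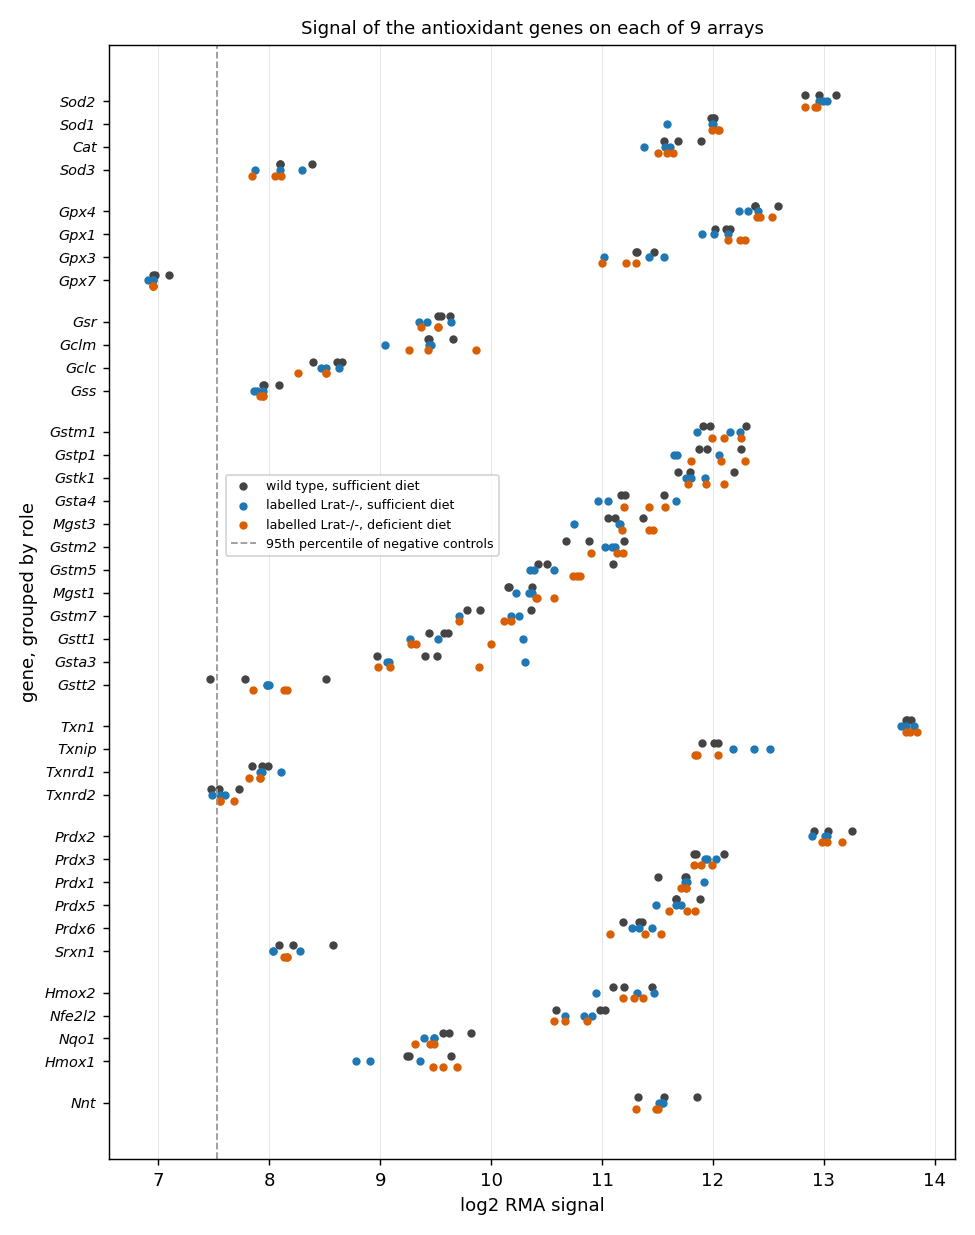
Log2 RMA signal (x axis) of each of the 39 antioxidant genes (y axis, grouped by role) on each of 9 arrays. Each point is 1 array, colours mark the 3 groups, and the dashed line is the 95th percentile of the negative controls at 7.53. For Txnip the 3 sufficient-diet arrays labelled Lrat-/-, at 12.18 to 12.52, all lie above the other 6 arrays.

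No antioxidant gene passed an adjusted p of 0.05 in any of the 3 comparisons or in a test over the 3 groups. In the limma fit over all 21911 genes, genotype gave 29 genes past that threshold (0.132% of those tested), diet gave 0 (0%), the third comparison gave 29 (0.132%) and the moderated F test over the 3 groups gave 28 (0.128%). For diet 940 genes were at an unadjusted p under 0.05, and 1740 of 35556 probe sets were so in the authors' deposited table, of which 0 passed after adjustment. Of the 39 antioxidant genes, 3 were at an unadjusted p under 0.05 with genotype (7.69%), against 6.79% of all genes. They were Txnip, with a higher mean in the arrays labelled Lrat-/-, and Nqo1 and Hmox1, with a lower one. With diet, 4 of 39 were (10.3%), against 4.29% of all genes: Hmox1, Mgst3 and Gpx1 had a higher mean on the deficient diet and Txnip a lower one. In the third comparison there were 2, Mgst1 and Nqo1, or 5.13% against 9% of all genes. The F test gave Txnip, Nqo1 and Hmox1 at that level, 7.69% against 7.07% of all genes. Same-numbered arrays of the 2 diets deviated together, and with the replicate number as a block Gpx1 was no longer among the diet genes, leaving Mgst3, Txnip and Hmox1. With that block and these 2 groups alone, Gstm5 and Gstp1 joined those 3, making 5 genes, against 9.02% of all genes. The difference in share between these genes and all genes was not tested.

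The intervals give the precision of each measured difference, gene by gene and without adjustment for the number of genes. The 95% interval of a gene's log2 difference had a median half-width of 0.26, from 0.14 to 0.78. All 39 intervals lay within a 2-fold change in either direction in each comparison. Gpx7 is counted among them, but at 6.96, under the control percentile, its interval is no measure of a fold. Within a 1.5-fold change lay 34 of the 39 for genotype, 31 for diet and 36 for the third comparison. In the plot of differences with their intervals, the widest belong to Gsta3 and Gstt1.

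**Figure D2:**
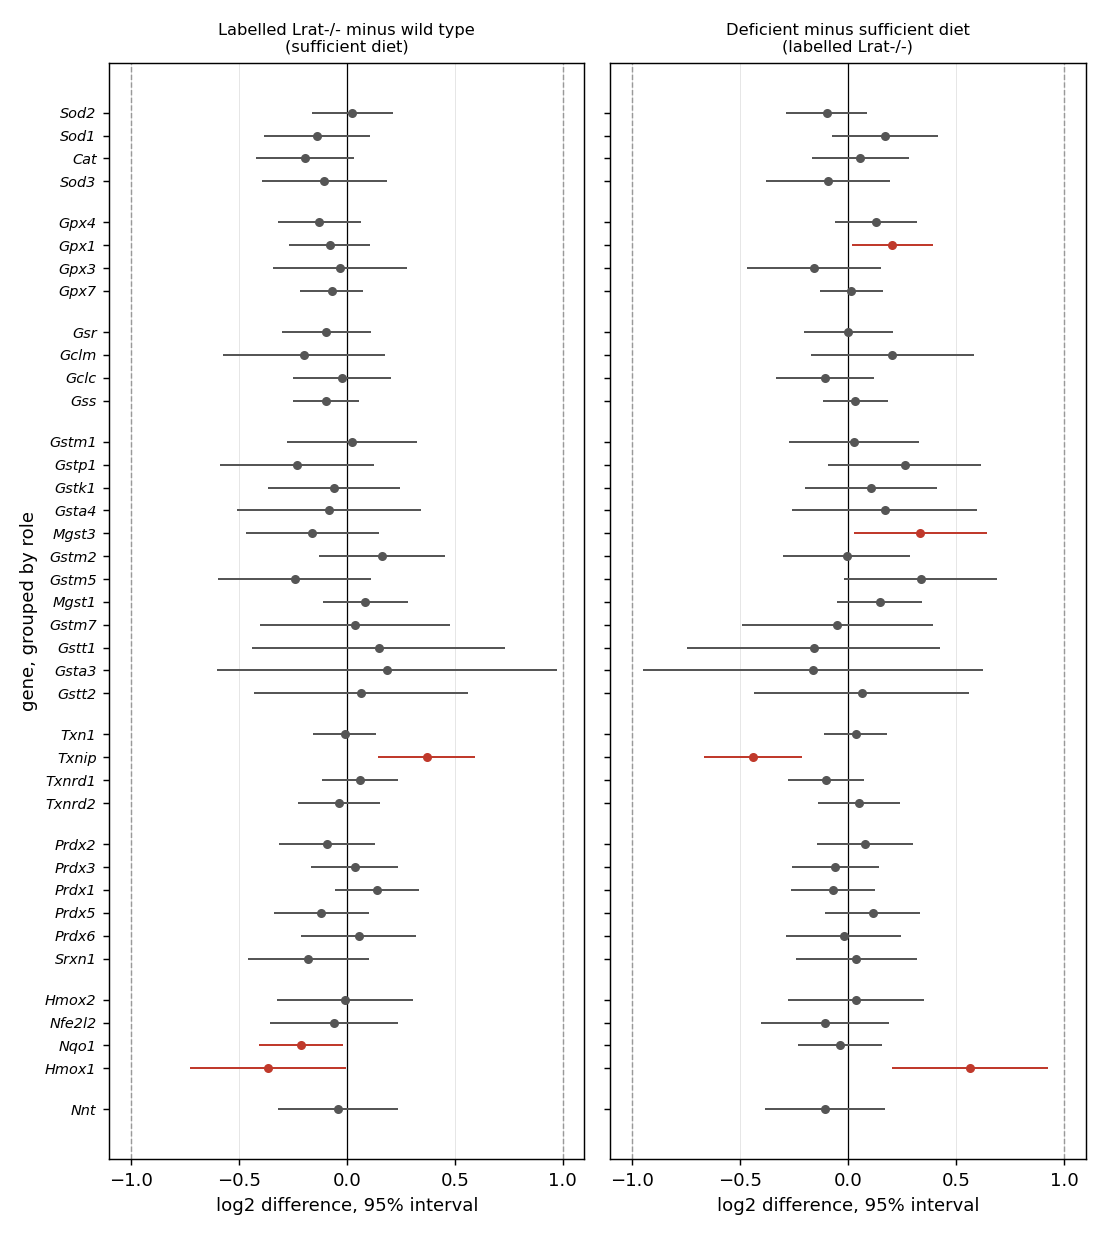
Log2 differences (x axis) of the 39 antioxidant genes (y axis, grouped by role) with 95% intervals from the limma fit, for genotype on the left and diet on the right. Red marks an unadjusted p under 0.05, in 3 genes on the left and 4 on the right. Dashed lines mark a 2-fold change, which no interval reaches.

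Of the superoxide dismutases and catalase, none reached an unadjusted p of 0.05 in any comparison. Sod1 acts in the cytosol, Sod2 in mitochondria and Sod3 outside cells, and Cat encodes catalase. With genotype 3 of the 4 had a lower mean, from -0.19 for Cat (adjusted p = 0.750) to 0.03 for Sod2. With diet the differences ran from -0.10 for Sod2 to 0.17 for Sod1. In the groups labelled Lrat-/-, the 3 arrays of Sod2 on the deficient diet, at 12.94, 12.92 and 12.83, all lay below the 3 on the sufficient diet, at 13.03, 12.95 and 12.99. For Sod1 a single array labelled Lrat-/- on the sufficient diet stood at 11.58, while the other 8 arrays were between 11.98 and 12.06.

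Glutathione peroxidases reduce hydrogen peroxide, and Gpx4 also lipid peroxides within membranes, while Gpx3 is the secreted form and Gpx7 a form of the secretory pathway. All 4 had a lower mean in the sufficient-diet group labelled Lrat-/- than in wild type, by at most 0.13 (Gpx4, -0.13), and none at an unadjusted p under 0.05. Gpx1, the main cytosolic form, had log2 signals of 12.14, 12.01 and 11.90 with the sufficient diet and 12.14, 12.24 and 12.29 with the deficient diet, in arrays labelled Lrat-/-. Wild type stood between, at 12.02, 12.12 and 12.15. The groups on the 2 diets met at 12.14, and the difference was 0.21 ± 0.08 (SE, unadjusted p = 0.032, adjusted p = 0.968), not under an unadjusted p of 0.05 with the replicate block. Gpx3 had a diet difference of -0.16. Gpx7 took only 5 distinct values on the 9 arrays. Like values on several arrays occurred in 16 of the 39 genes and in 46.1% of all probe sets, so the SD of such a gene is partly set by them.

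Gclc and Gclm encode the catalytic and modifier subunits of glutamate-cysteine ligase, the rate-limiting step of glutathione synthesis. Gss encodes the next enzyme, and Gsr recycles oxidised glutathione. All 4 had a lower mean with genotype, from -0.02 for Gclc to -0.20 for Gclm, with adjusted p of 0.813 or more. Diet differences were -0.11 for Gclc and 0.21 for Gclm. Gclm was also uneven within groups: on the deficient diet its arrays read 9.43, 9.87 and 9.26.

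The 12 glutathione transferases comprise the cytosolic alpha, mu, pi and theta classes, the mitochondrial Gstk1 and the membrane-bound Mgst1 and Mgst3. With genotype 7 of the 12 had a higher mean, with diet 8, and in the third comparison 10, with medians of 0.03, 0.08 and 0.07 (log2). The same medians over all genes were -0.0023, -0.0040 and -0.0040. Gstm1, Gstm2, Gstm5 and Gstm7 lie together on chromosome 3 and have similar sequences, as do Gstt1 and Gstt2 on chromosome 10, so probes may be shared between copies and each gene's value is uncertain to that extent. A second probe set that one table gave to Gstp1 was called Gstp2 by the other and was left out.

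Mgst1 encodes a microsomal transferase that also reduces lipid peroxides. Its log2 signals were 10.16, 10.15 and 10.37 in wild type, 10.37, 10.35 and 10.22 in the sufficient-diet group labelled Lrat-/-, and 10.42, 10.56 and 10.40 on the deficient diet. The deficient arrays lay above all other 6. The third comparison gave 0.23 ± 0.09 (SE, unadjusted p = 0.023, adjusted p = 0.481), and diet gave 0.15 (unadjusted p = 0.118). Without wild-type array 3 the third comparison gave 0.30 with an adjusted p of 0.126, the lowest of any antioxidant gene under any setting tried.

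Mgst3, another membrane-bound transferase and peroxidase, read 11.06, 11.12 and 11.37 in wild type, 11.15, 11.16 and 10.74 with the sufficient diet and 11.46, 11.42 and 11.18 with the deficient diet in the arrays labelled Lrat-/-. The 2 diets did not overlap, and array 3 was the lowest of its group on both. The diet difference was 0.33 ± 0.13 (SE, adjusted p = 0.968), and 0.20 without sufficient-diet array 3. Gstm5, a mu-class transferase, read 10.43, 10.50 and 11.10 in wild type, 10.39, 10.56 and 10.35 with the sufficient diet and 10.73, 10.78 and 10.80 with the deficient diet. The 2 diets again did not overlap, with a difference of 0.34 ± 0.16 (SE, unadjusted p = 0.059), while wild type overlapped both.

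Gsta3, an alpha-class transferase, and Gstt1, a theta-class one, were the most variable of the antioxidant genes. Gsta3 read 10.30 on array 2 of the sufficient diet and 9.89 on array 2 of the deficient diet, both labelled Lrat-/-, and 8.97 to 9.51 on the other 7 arrays. On the same 2 arrays Gstt1 read 10.28 and 10 in that order, and 9.27 to 9.61 on the others. The pooled SDs, 0.53 and 0.39, placed these genes at percentiles 99.4 and 98.3 of all genes. Their genotype differences of 0.19 and 0.15 had standard errors of 0.35 and 0.26. Gstt2, the neighbour of Gstt1, did not share the pattern: it read 7.86 to 8.16 on all 6 arrays labelled Lrat-/-, and 7.47 to 8.51 in wild type.

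Within the thioredoxin system, Txn1 (cytosolic thioredoxin), Txnrd1 (the cytosolic reductase) and Txnrd2 (the mitochondrial reductase) had differences near 0 in each comparison, Txnrd1 with diet being furthest from 0 at -0.10 (adjusted p = 0.968). Txn1 was the steadiest antioxidant gene, between 13.70 and 13.84 on the 9 arrays.

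Txnip encodes a protein that binds thioredoxin and restrains it, and that also limits glucose uptake. It gave the lowest unadjusted p of the 39 genes in both the genotype and the diet comparison. Its log2 signals were 11.90, 12.01 and 12.05 in wild type, 12.52, 12.37 and 12.18 in the sufficient-diet group labelled Lrat-/-, and 11.86, 12.05 and 11.84 on the deficient diet. The middle group overlapped neither of the others, while wild type and the deficient diet overlapped. The genotype difference was 0.37 ± 0.10 (SE, unadjusted p = 0.0043, adjusted p = 0.438) and the diet difference -0.44 ± 0.10 (SE, unadjusted p = 0.0014, adjusted p = 0.934). The 2 comparisons share the arrays of the middle group. In the authors' deposited table the ratios for Txnip were 1.23 for genotype and 0.762 for diet, and the lowest Benjamini-Hochberg p computed from that table over the 39 genes was 0.466. By the unadjusted p-values of the authors' deposited table, Txnip, Nqo1 and Gss were under 0.05 with genotype, Txnip and Hmox1 with diet, and Gss alone in the third comparison. Of the genes named above, Hmox1 with genotype (p = 0.222), Gpx1 and Mgst3 with diet (0.143 and 0.0610), and Mgst1 and Nqo1 in the third comparison (0.0604 and 0.0895) were not under it in the authors' deposited table. Leaving out 1 array at a time kept the genotype difference between 0.29 and 0.46 and the diet difference between -0.53 and -0.36, and no such fit gave an adjusted p under 0.05.

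Smooth muscle markers took the same course as Txnip in their group means. Their mean log2 signal per array was 7.62 to 7.91 in wild type, 8.04 to 8.33 in the sufficient-diet group labelled Lrat-/- and 7.69 to 7.95 on the deficient diet, and their summed signal was 2183 to 4003, 3789 to 9387 and 2287 to 2901. All 4 had a higher mean with genotype and a lower one with the deficient diet, and none passed the adjusted threshold. Only Acta2, smooth muscle actin, was above the negative controls, with differences of 1.23 and -1.27, while Myh11, Tagln and Cnn1 were not. The Acta2 arrays of wild type and of the sufficient-diet group labelled Lrat-/- overlapped. In that group the marker means were 8.33, 8.04 and 8.28 on arrays 1 to 3, not in the order of Txnip. The order also differed in wild type and was the same on the deficient diet. Their part in the result for Txnip was not tested. In bulk tissue, more cells of a type and more RNA per cell cannot be told apart.

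The promoter of Txnip is shown because glucose-sensing factors are known to act on it through a pair of CACG-containing boxes, called the carbohydrate response element. The RefSeq sequence upstream of the start, chr3:96557707-96557956 (GRCm38.p6, plus strand), reads 5′ to 3′ as below, with the pair in capitals.
Txnip: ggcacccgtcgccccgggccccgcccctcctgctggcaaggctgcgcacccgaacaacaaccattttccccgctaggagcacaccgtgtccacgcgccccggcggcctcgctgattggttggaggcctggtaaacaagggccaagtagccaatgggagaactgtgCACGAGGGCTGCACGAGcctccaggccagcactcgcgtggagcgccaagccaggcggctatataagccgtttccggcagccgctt
The pair was searched, on both strands, as CACGNG, 5 bases of any kind, then CACGNG, a form chosen after this sequence was read. It begins 85 bases before the start. In windows from 250 bases before to 50 after the start, it was present in 0.0487% of 32851 promoters and in no other antioxidant gene among the 31 with a window. A match describes the letters and does not show that a factor was bound.

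Peroxiredoxins remove hydrogen peroxide with electrons from thioredoxin, and Srxn1, sulfiredoxin, repairs them when over-oxidised. Prdx1 and Prdx2 are cytosolic, Prdx3 mitochondrial and Prdx5 found in several compartments, while Prdx6 can use glutathione. The 6 genes split 3 higher and 3 lower with genotype and likewise with diet. Their differences lay between -0.18 (Srxn1) and 0.14 (Prdx1) with genotype, and between -0.07 (Prdx1) and 0.12 (Prdx5) with diet. No member of the group reached an unadjusted p of 0.05 in any comparison.

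Nfe2l2 itself gave differences of -0.06 with genotype and -0.10 with diet. Of its inducible enzymes, Nqo1, a quinone reductase, read 9.82, 9.62 and 9.56 in wild type, 9.49, 9.49 and 9.39 in the sufficient-diet group labelled Lrat-/- and 9.45, 9.48 and 9.32 on the deficient diet. Every array labelled Lrat-/- lay below every wild-type array. The genotype difference was -0.21 ± 0.08 (SE, unadjusted p = 0.031, adjusted p = 0.697) and the third comparison gave -0.25 ± 0.08 (SE, adjusted p = 0.442). Nqo1 and Txnip were the 2 antioxidant genes whose groups did not overlap with genotype, 5.13% of the 39, against 7.9% of all genes. With diet 7 genes did not overlap (17.9% against 9.48%): Gstm5, Mgst1, Mgst3 and Hmox1 were higher on the deficient diet, and Sod2, Txnip and Nnt were lower. In the third comparison Mgst1 and Nqo1 did not overlap (5.13% against 11.5%).

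Hmox1, heme oxygenase 1, is the inducible enzyme that breaks down heme, and Hmox2 is its constitutive relative. Hmox1 read 9.25, 9.26 and 9.64 in wild type, 9.36, 8.91 and 8.78 in the sufficient-diet group labelled Lrat-/- and 9.69, 9.56 and 9.48 on the deficient diet. The 2 diets did not overlap, whereas wild type overlapped both. Its diet difference of 0.56 ± 0.16 (SE, unadjusted p = 0.006, adjusted p = 0.968) was the largest of the 39 genes in either comparison. It ranged from 0.44 to 0.74 when 1 array was left out. The genotype difference was -0.37 ± 0.16 (SE, unadjusted p = 0.045, adjusted p = 0.726), and it was -0.24 without wild-type array 3 and -0.54 without sufficient-diet array 1 of those labelled Lrat-/-. Hmox2 differed by 0.04 or less in size in each comparison.

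Macrophage markers followed the order of Hmox1 in wild type and in one group labelled Lrat-/-, and not in the other. The mean log2 signal of 7 macrophage markers on the 3 sufficient-diet arrays was 9.28, 8.90 and 8.80, in the same order as Hmox1. On the deficient diet it was 9.34, 8.99 and 9.34, where Hmox1 was instead lowest on array 3. In wild type it was 8.99, 9.09 and 9.22, again in the order of Hmox1, whose arrays 1 and 2 were nearly equal there. The summed signal was 4351 to 5082 in wild type, 3636 to 5367 on the sufficient diet and 4542 to 5381 on the deficient diet. With diet 6 of 7 markers had a higher mean, among them Cd68 at 0.36 (adjusted p = 0.968), and 1 of the 7 was not above the negative controls. The part of macrophages in the result for Hmox1 was not tested.

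**Figure D3:**
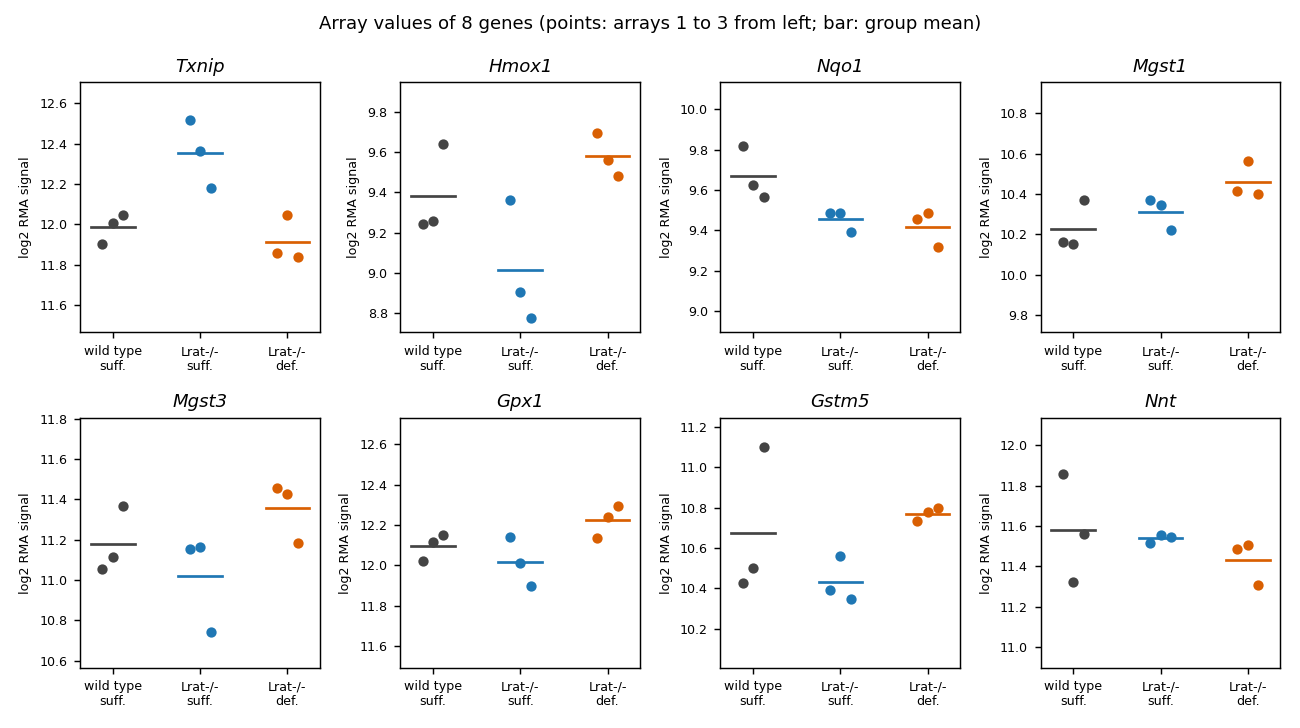
Log2 RMA signal (y axis, the same span in every panel) of 8 antioxidant genes in wild type on the sufficient diet, Lrat-/- (as labelled) on the sufficient diet and Lrat-/- on the deficient diet (x axis). Points are arrays 1 to 3 from left to right and the bar is the mean of 3. Txnip is highest and Hmox1 lowest in the middle group, Nqo1 is highest in wild type, and Nnt overlaps between wild type and both other groups.

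Nfe2l2 acts through the antioxidant response element, whose core is TGACNNNGC. The core, searched on both strands in RefSeq promoter windows from 250 bases before to 50 after the start (GRCm38.p6), was found in 10 of the 31 antioxidant genes with a window and in 14.0% of 27025 genes. The 10 sites are shown 5′ to 3′ along the gene's strand with 8 bases on each side, and capitals mark the core or its reverse complement.
Gsta3, chr1:21240456-21240480: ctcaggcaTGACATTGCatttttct
Nfe2l2, chr2:75704887-75704911: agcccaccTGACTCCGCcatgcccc
Srxn1, chr2:152105544-152105568: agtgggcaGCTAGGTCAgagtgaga
Gstm5, chr3:107895804-107895828: ccgcccacTGACCACGCggagggcg
Gstm7, chr3:107931727-107931751: tgaagaccTGACAAAGCgaagccaa
Gclm, chr3:122245415-122245439: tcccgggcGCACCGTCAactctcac
Prdx1, chr4:116685458-116685482: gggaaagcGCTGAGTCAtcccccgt
Mgst1, chr6:138140463-138140487: ggggcttgGCACGGTCAggaggcgg
Txnrd1, chr10:82859106-82859130: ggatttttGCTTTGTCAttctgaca
Sod1, chr16:90220698-90220722: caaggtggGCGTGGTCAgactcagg
These letters do not show that Nfe2l2 was bound, and a gene without a match may hold one elsewhere. The 10 genes with the core had median differences of -0.01 with genotype and -0.0058 with diet, with 5 higher and 5 lower in each. The 21 without it had medians of -0.06 and 0.04. Neither Nqo1 nor Txnip, the genes that did not overlap with genotype, had the core in its window. Hmox1, Sod3, Gsta4, Prdx6, Gsr, Nnt, Gclc and Gstt2 had no window and so were in neither set.

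Nnt encodes the mitochondrial transhydrogenase that supplies NADPH to both systems, and mice of the C57BL/6J substrain carry a deletion in it. It read 11.86, 11.32 and 11.56 in wild type, 11.52, 11.55 and 11.54 in the sufficient-diet group labelled Lrat-/- and 11.48, 11.51 and 11.31 on the deficient diet. All 9 arrays were far above the negative controls, and wild type, which varied most, overlapped both other groups. The genotype difference was -0.04 ± 0.12 (SE, adjusted p = 0.965), the diet difference -0.11 (adjusted p = 0.971) and that of the third comparison -0.15 (adjusted p = 0.754). Leaving out wild-type array 1 or 2 moved the genotype value to 0.10 or -0.17. The sources used here do not place the probes relative to that deletion, so the level does not identify a substrain.

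Taken over all 39 genes, more means were lower than higher with genotype and more were higher than lower with diet. With genotype 26 were lower and 13 higher, with a median of -0.06, whereas 49.2% of all genes were higher and their median was -0.0023. With diet 23 were higher and 16 lower, with a median of 0.03, against 48.4% of all genes higher and a median of -0.0040. In the third comparison 20 were higher and 19 lower, with a median of 0.0034, against 48.7% of all genes higher. The leanings changed with single arrays. Without array 3 of those labelled Lrat-/- on the sufficient diet, genotype gave 19 higher and 20 lower (median -0.0065) and diet 18 higher and 21 lower (median -0.01). Without deficient-diet array 3, where 28 of the 39 genes had their lowest value of that group, diet gave 27 higher and 12 lower (median 0.07), and with the replicate block it gave 23 higher. Without wild-type array 3, genotype gave 18 higher and 21 lower, and the third comparison 24 higher and 15 lower. Without deficient-diet array 2 the third comparison gave 14 higher and 25 lower, and without wild-type array 1 it gave 12 higher and 27 lower.

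Single arrays stood apart for many of these genes, and the difference from other genes was not tested. Sufficient-diet array 3 of those labelled Lrat-/- was the lowest of its 3 arrays for 24 of the 39 genes and the highest for 3, while it was the lowest for 30.9% of all genes. Deficient-diet array 3 was the lowest for 28 and the highest for 4, against 31.7% of all genes lowest. Wild-type array 3 was instead the highest for 22 and the lowest for 7, against 28.8% of all genes highest. The median deviation of the 39 genes from their own group's mean was -0.09 on each of the first 2 of these arrays and 0.08 on the last. Over all genes above the control percentile it was -0.03, -0.0044 and 0.0052 on these 3 arrays. In the groups labelled Lrat-/-, array 2 was the highest for 20 of the 39 genes with the sufficient diet and 21 with the deficient diet. It was the lowest for 6 and 2, and was the highest for 33.6% and 32.1% of all genes. These shifts are close to the median size of a gene's difference between groups, 0.09 with genotype and 0.10 with diet. The map of deviations shows this among the transferases.

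**Figure D4:**
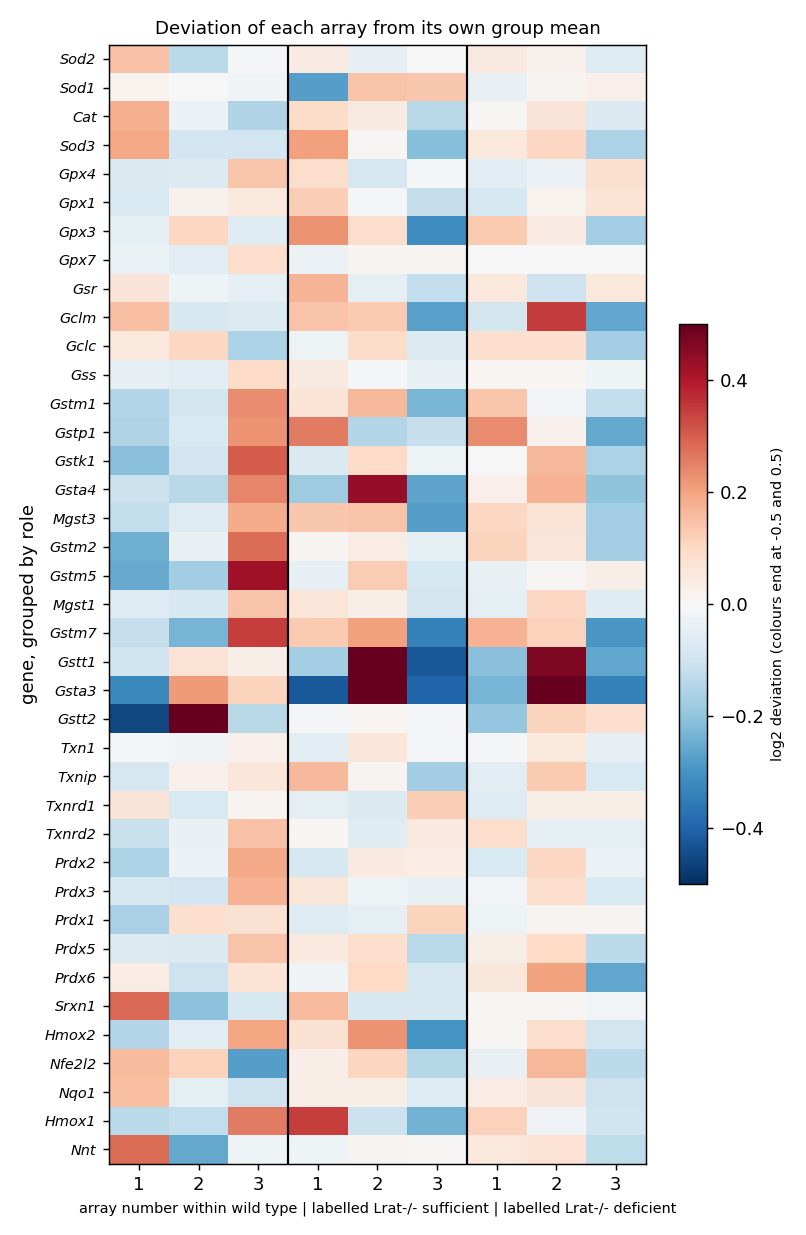
Deviation of each array from the mean of its own group (colour, log2 scale, ending at -0.5 and 0.5) for the 39 antioxidant genes (rows, grouped by role) on 9 arrays (columns, 3 per group). Array 3 of both groups labelled Lrat-/- is mostly blue, being the lowest of 3 for 24 and 28 of the 39 genes, and wild-type array 3 is mostly red among the transferases.

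Other genes of the same pathways were examined as 4 further lists, chosen with earlier results of these data known. Of the 31, 12, 24 and 18 genes measured on them, 2 passed the adjusted threshold, both of the glyoxalase system. Of all genes, 0.132% passed it with genotype, 0% with diet and 0.132% in the third comparison. The difference in share was not tested. Glyoxalases use glutathione to detoxify methylglyoxal, a by-product of sugar breakdown: Glo1 encodes the first enzyme and Hagh the second, and both genes lie on chromosome 17. Glo1 read 11.08, 10.99 and 11.06 in wild type, 10.43, 10.03 and 10.18 in the sufficient-diet group labelled Lrat-/- and 10.31, 10.13 and 10.06 on the deficient diet. It fell by 0.83 on the log2 scale with genotype (SE 0.11, adjusted p = 0.0269) and by 0.88 in the third comparison (adjusted p = 0.0159), with no overlap with wild type in either. Its diet difference was -0.05 (adjusted p = 0.982). Hagh read 9.60, 9.60 and 9.75 in wild type. In the groups labelled Lrat-/- it read 10, 9.90 and 10.03 with the sufficient diet and 10.26, 10.20 and 10.24 with the deficient diet. It rose by 0.58 ± 0.07 (SE, adjusted p = 0.0159) in the third comparison, with 0.33 for genotype (adjusted p = 0.248) and 0.25 for diet (adjusted p = 0.968), and the 3 groups did not overlap.

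The glyoxalase calls were lost in several of the other settings. Many of those settings can change only the p-value and leave the difference as it was. Over the settings that can change it, the difference of Glo1 ranged from -0.94 to -0.74 with genotype. In the third comparison Glo1 ranged from -0.95 to -0.82 and Hagh from 0.56 to 0.63. For genotype, Glo1 stayed under 0.05 in 10 of 18 other settings (adjusted p from 0.0160 to 0.186). It was lost without wild-type array 1 or 2, without sufficient-diet array 2 or 3, without any 1 deficient-diet array, and with only the 2 groups compared. In the third comparison Glo1 stayed under 0.05 in 13 of 18 settings and Hagh in 12 of 18, with adjusted p of up to 0.124 and 0.121. Both were lost there without wild-type array 1 or 2, without deficient-diet array 2 or 3 and with only the 2 groups compared, and Hagh also without deficient-diet array 1.

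None of the other genes on these lists passed the threshold. In the order of the lists below, 14 of 31, 1 of 12, 3 of 24 and 6 of 18 measured genes were not above the negative controls. Directions at such signals are uncertain. Of 34 other glutathione genes, such as further transferases, glutaredoxins and transporters, 31 were measured, and 19 were higher and 12 lower with genotype and 13 higher and 18 lower with diet. Of 13 other thioredoxin, peroxiredoxin and methionine sulfoxide genes 12 were measured, 8 of them lower with genotype. The lowest p among these was that of Nxn, nucleoredoxin, at -0.34 ± 0.09 (SE, adjusted p = 0.403). Of 27 genes of Nfe2l2 regulation and NADPH supply 24 were measured, with 10 higher and 14 lower with genotype and 15 higher and 9 lower with diet. Blvra, biliverdin reductase, which acts after heme oxygenase, differed by 0.30 with diet (unadjusted p = 0.0227, adjusted p = 0.968). All 18 oxidant sources, among them NADPH oxidase subunits, nitric oxide synthases and monoamine oxidases, were measured. Of these, 15 were lower with genotype and 13 higher with diet, none at an unadjusted p under 0.05. Their array means were 8.46 to 8.53 in wild type, 8.51, 8.35 and 8.26 on the sufficient diet and 8.38 to 8.49 on the deficient diet, so sufficient-diet array 3 was again the lowest.

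Markers of other cells of the heart and its surroundings also had uneven means across the groups. Of all genes, 49.2% had a higher mean with genotype, 48.4% with diet and 48.7% in the third comparison. All 5 measured erythroid markers of 8 had a higher mean in each comparison. Their summed signal was 1869 to 3221 in wild type, 2952 to 3794 in the sufficient-diet group labelled Lrat-/- and 3566 to 7555 on the deficient diet, with 4 of the 5 not above the negative controls. None passed the threshold, and the lowest adjusted p was 0.152, for Ahsp in the third comparison. All 9 cardiomyocyte markers had a lower mean in the third comparison, with array means of 13.55 to 13.57 in wild type and 13.42 to 13.50 on the deficient diet (lowest adjusted p = 0.234, for Myh6). All 7 endothelial markers had a lower mean with genotype. Their array means were 9.34 to 9.93 in wild type and 9.29 to 9.62 on the sufficient diet. All 7 also had a lower mean in the third comparison, with array means of 9.18 to 9.41 on the deficient diet, overlapping wild type. Of them, 5 were at an unadjusted p under 0.05 there, against 9% of all genes. Markers of a cell type can vary together, so such counts are not of independent genes. All 7 fibroblast markers had a lower mean in the third comparison. Their array means were 9.92 to 10.19 in wild type and 9.68 to 9.94 on the deficient diet. Of them, 3 were at an unadjusted p under 0.05, against the same 9% of all genes. All 4 atrial markers had a higher mean on the deficient diet, with a median of 0.37 and array means of 7.84 to 8.32 with the sufficient and 8.32 to 8.43 with the deficient diet. Of 7 adipocyte markers, 6 of which were not above the negative controls, 6 had a higher mean on the deficient diet, with array means of 6.61 to 6.89 on the sufficient and 6.86 to 7.53 on the deficient diet. Among them Adipoq differed by 1.01 (adjusted p = 0.968). All 4 mesothelial markers, 1 of which was not above the negative controls, had a lower mean with genotype, with a median of -0.26. With diet 3 of the 4 had a higher mean. Their array means were 8.44, 8.86 and 7.61 in wild type and 7.74 to 8.42 on the sufficient diet. Wild-type array 3 was the lowest of its group for mesothelial, endothelial (9.34) and fibroblast (9.92) markers. It was the highest for macrophage markers (9.22) and in the middle for the other cell lists. No marker of these lists passed the threshold. The part of these cell types in the values of the antioxidant genes was not tested.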

How the data were processed

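RNA of 9 left-ventricle samples was measured on 9 Affymetrix arrays. The authors deposited 1 log2 signal per probe set and sample. The submitters' processing notes name RMA, R 3.1.2 and build mm8, and the log2 scale was read from the values. Per its file headers, a comparison table deposited by the authors holds ratios and p-values, 1 of each for every 2 groups, and it does not state their computation. A second deposited table holds 9 value columns headed by codes that match no label. None of them was used, only its gene names.

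Of 35556 probe sets, 24016 were named with 1 gene, 2357 were left out because the tables name different genes, 134 because they name several and 9049 because no gene is named. Symbols were matched to the RefSeq gene table (21032 of 21911 genes), and promoters are RefSeq's. Array medians were 6.38 to 6.43. The number of arrays limits the precision.

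limma 3.58.1 in R 4.3.3 fitted 1 mean per group over all 9 arrays, with empirical Bayes moderation (6 residual and 3.41 prior degrees of freedom). Two-sided p-values were adjusted by Benjamini-Hochberg over all 21911 genes, with a threshold of 0.05, which is what adjusted p means. The fit was tested on simulated data. Figures and tables used Python 3.11.15, pandas 2.3.3, numpy 2.4.6 and matplotlib 3.10.9.

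The 40 genes, the further pathway lists, the markers and the motifs were chosen with earlier results of these data known. Array values are given for Nnt, for genes with an unadjusted p under 0.05 and for genes whose groups do not overlap and differ by at least 0.3. For other genes ranges or single values that stand out were given after they were seen. Of each further pathway list, values were given for at most 4 genes with the lowest p.

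Replicate numbers come from the sample titles. Arrays with the same number in the 2 groups labelled Lrat-/- deviated together from their group means (correlations 0.213 to 0.265). Different numbers gave -0.142 to -0.0701. Deviations within a group sum to 0, so these negative values follow from the positive ones and add no separate evidence. By the rule used the numbers served as a block in an alternative fit, but the correlations cannot show that the arrays were paired. With wild type, same-numbered arrays did not deviate together (-0.144 to 0.130). The alternatives were the replicate block, only the 2 groups compared, the mean of a gene's probe sets, every probe set, minimum levels of 6 and 7, a further quantile normalization, an intensity trend with robust moderation, each array left out, and the authors' p-values. Batches are not given in the labels.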

Additional observations from a re-analysis of the deposited data

How the results depend on the processing

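No antioxidant gene passed the adjusted threshold in any of 2142 recomputed differences over 19 other settings. The lowest adjusted p was 0.126. The sign changed in 113 of them, and 3 moved by at least the SD between arrays. Many of the 2142 could not change, since several settings alter only the p-value and leave the difference as it was. These were the replicate block, the 2 groups alone, every probe set, the minimum levels, the intensity trend and leaving out an array of the group not compared. The 113 are therefore a larger share of the differences that could change. With the replicate block, diet gave 0 genes of all tested and 0 antioxidant genes (lowest adjusted p of all genes 0.609, with 1033 genes and 3 antioxidant genes at an unadjusted p under 0.05), and the block changed no call of an antioxidant gene in the other comparisons. With the block and the arrays of the 2 groups labelled Lrat-/- alone, a fit added after the data were seen, it also gave 0, with a lowest adjusted p of 0.331 over all genes and 0.475 over the antioxidant genes, and 1977 and 5 genes at an unadjusted p under 0.05. The dimmer probe sets of Gpx4 and Prdx2, and the one called Gstp1 by one table and Gstp2 by the other, also added later, gave no call.

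The count over all genes depended on the arrays. For genotype, 29 genes became 7 with only the 2 groups compared, 13 with the authors' p-values and 11 to 96 when 1 array was left out, the highest without wild-type array 3. For the third comparison, 29 became 7 with the 2 groups, 19 with a minimum mean level of 7, 11 with the authors' p-values and 11 to 265 when 1 array was left out, again highest without wild-type array 3. For any difference among the groups, 28 became 17 with the replicate block, 18 with the minimum level of 7 and 10 to 95 when 1 array was left out. The causes were not tested. Removing an array of a group also lowers the degrees of freedom. With 3 arrays a group the interval of a difference had a median half-width of 0.26 (log2), and Gpx7 was within the range of the negative controls.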
